A study of Rattus norvegicus with 8 samples.

Results

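The core genes of the circadian clock were followed in the small intestine of rats with cystic fibrosis (CF) and of wild-type (WT) rats. The 10 genes were Arntl, Clock, Npas2, Per1, Per2, Per3, Cry1, Cry2, Nr1d1 and Dbp, each taken as the locus that carries exactly that symbol, and they are 10 of the 52753 loci in the deposited tables. Per2 had a further locus of its name with 30 fragments in all 8 libraries, and the locus with more fragments was used. RNA was sequenced from 4 CF and 4 WT libraries of Sprague Dawley rats at postnatal day 21. The whole small intestine was trimmed and flushed before extraction, so epithelium, muscle, nerves, vessels and immune cells all contributed RNA. The labels give no CF allele, sex, litter, batch or hour of sampling, and do not say that the libraries of a group came from separate animals, so p-values measure the spread between these libraries. Libraries are called by the number 0 to 3 that the tables give within each group.

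The mammalian clock is a feedback loop of transcription. Arntl, also called Bmal1, pairs with Clock or its relative Npas2 and activates genes that carry an E-box, among them the Per and Cry genes, Nr1d1 and Dbp. The Per and Cry proteins then repress that pair, while Nr1d1 (Rev-erb alpha) represses Arntl and Npas2 through ROR elements. In rodent tissues with a running clock, Arntl and Npas2 mRNA peak in the opposite part of the day to Dbp, Nr1d1 and the Per genes, and the intestinal epithelium holds such a clock. The level of a single clock gene in a single sample therefore depends on the hour at which the tissue was taken, and the hour was not among the labels.

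The promoter windows of RefSeq on build GRCr8, from 250 bases before to 50 bases after each start, show these elements for 3 genes that stand at different places in the loop. Of the 10 genes 9 matched the table, with 11 windows in all. The letters searched on both strands were CACGTG for the E-box, CACGTT for a one-letter variant called the E-prime box, AGGTCA for the core of the ROR element and TGACGTCA for the cAMP response element. The E-prime box was added after the first results were seen. Capitals mark the match in the 3 windows below, which are written 5′ to 3′ on the strand of the gene. The first is that of Arntl at chr1:176766078-176766377 on the plus strand, the second that of Per2 at chr9:99496944-99497243 on the minus strand, and the third the second listed window of Nr1d1 at chr10:84229405-84229704 on the minus strand.
Arntl: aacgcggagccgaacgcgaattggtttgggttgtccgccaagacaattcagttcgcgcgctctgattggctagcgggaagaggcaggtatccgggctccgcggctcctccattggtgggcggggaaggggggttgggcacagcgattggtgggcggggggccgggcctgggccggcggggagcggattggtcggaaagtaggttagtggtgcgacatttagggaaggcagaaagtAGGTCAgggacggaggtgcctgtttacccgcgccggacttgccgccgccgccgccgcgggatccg
Per2: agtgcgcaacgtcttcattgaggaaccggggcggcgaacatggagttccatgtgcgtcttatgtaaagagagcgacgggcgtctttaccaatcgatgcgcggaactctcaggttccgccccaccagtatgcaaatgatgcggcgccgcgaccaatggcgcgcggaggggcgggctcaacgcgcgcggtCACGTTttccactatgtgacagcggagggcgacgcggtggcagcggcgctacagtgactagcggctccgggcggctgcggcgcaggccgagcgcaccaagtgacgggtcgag
Nr1d1: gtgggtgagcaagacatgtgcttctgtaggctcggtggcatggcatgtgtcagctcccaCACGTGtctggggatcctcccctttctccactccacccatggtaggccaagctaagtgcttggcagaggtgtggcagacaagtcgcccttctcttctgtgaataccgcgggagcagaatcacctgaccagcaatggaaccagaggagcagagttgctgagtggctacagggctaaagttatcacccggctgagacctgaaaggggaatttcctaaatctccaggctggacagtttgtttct

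Arntl was the 1 gene whose window held the ROR core, with its first base at -15 from the start, and 16.2% of all 33469 windows in the table hold those letters on either strand. Per2 held the E-prime box with its first base at -62, and Cry2 and the first Nr1d1 window held it on the other strand, so that 3 genes carried these letters, which occur in 4.83% of all windows. The second Nr1d1 window held the full E-box, with its first base at -191 from the start, as do 6.42% of all windows. The cAMP response element, through which Per1 answers cAMP signals, was found in none of the 11 windows of the 9 matched genes. It occurs in 1.83% of all windows. Cry1 was the gene without a window and was not searched. A match describes letters in a window and is not a measured binding site.

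The libraries held 18.6 to 20.9 M fragments in CF, against 15.3 to 20.8 M fragments in WT. The 10 clock genes held 205 to 2618 fragments each per library. Cftr, the gene that is mutated in cystic fibrosis, averaged 97.3 ± 6.40 counts per M fragments (CPM) in CF and 94.8 ± 14.7 CPM in WT (SD, n = 4 each; edgeR adjusted p = 0.916), so its level gives no check of the genotype labels. Markers of enterocytes summed to 6811 to 22680 CPM in CF intestine and 11170 to 20720 CPM in WT. No listed marker that had a locus was at 0 in all 8 libraries. CF library 0 had the lowest enterocyte score, at -1.17 log2 units from the mean of the 8 libraries, and with CF library 3 it stood apart on the first principal component of all tested loci, at -56.9 and -43.6 against 4.1 and 8.5 in the other CF libraries and 18.9 to 28.6 in WT. Smooth muscle markers summed to 4660 to 6218 CPM in CF intestine and 2807 to 4195 CPM in WT, and red cell markers to 90.3 to 124 CPM in CF intestine and 151 to 351 CPM in WT. Endothelial markers summed to 52.5 to 81.6 CPM in CF, against 83.8 to 110 CPM in WT. Neutrophil markers summed to 3.51 to 35.3 CPM in CF, against 0.819 to 2.68 CPM in WT. The groups thus did not overlap in these 4 sums, a pattern that 8.78% of single tested loci showed. Single markers differed: Des, Cnn1, Kdr, Emcn and the 4 red cell markers had no overlap, while Acta2, Myh11 and Cdh5 overlapped. Of 4 neutrophil markers 2 were tested, both without overlap, and S100a9 averaged 0.39 CPM in WT. Hba-a2, a red cell marker, passed the edgeR test (adjusted p = 0.0339), as did 0.165% of all tested loci. The sums of goblet cell, neuron and glia, lymphocyte, and fat and pancreas markers overlapped between the groups. Within these lists the goblet cell markers Spink4 (log2 fold change 2.17, edgeR adjusted p = 0.0674) and Agr2 (0.655) were higher in CF without overlap. S100b and Plin1 were lower in CF without overlap, and the other tested markers of these lists overlapped. In whole tissue, fewer cells of a type and less RNA per cell cannot be told apart, and the part of tissue makeup in the values below was not tested.

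No difference between CF and WT intestine was detected in any of the 10 clock genes. edgeR's quasi-likelihood test called 0 of the 10 at an adjusted p of 0.05, with adjusted p-values of 0.635 to 0.998 over all 16941 tested loci, of which it called 28, or 0.165%. At an unadjusted p of 0.05 the count among the 10 was also 0, where 15.1% of all tested loci passed. DESeq2 and limma-voom called 0 of the 10 as well. In no clock gene were the CF and WT libraries free of overlap, a pattern that 8.78% of the tested loci showed. Of the 10 log2 fold changes (CF over WT) 4 were positive and 6 negative. Their median was -0.03, against -0.005 over all tested loci, and the median of their absolute size was 0.11, against 0.188 over all tested loci. Only 7216 of the tested loci were as abundant as the least abundant of the 10, at a mean of 21.55 CPM. Sizes were not compared at like abundance.

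Among the activators, Arntl (chromosome 1, 178038995 to 178138368, Rnor_6.0), the partner that both Clock and Npas2 need, averaged 47.5 ± 12.0 CPM in CF intestine and 49.9 ± 7.52 CPM in WT (SD, n = 4 each). It had 49.9, 62.6, 43.5 and 34.1 CPM in CF libraries 0, 1, 2 and 3, against 60.1, 48.3, 49.1 and 42.0 CPM in WT libraries 0, 1, 2 and 3. The highest and the lowest of the 8 values were both in CF, and the WT values lay between them. The log2 fold change was -0.07, with a 95% interval of -0.46 to 0.32 and an edgeR adjusted p of 0.887. Clock (chromosome 14, 34418172 to 34502543), the acetyltransferase-bearing partner, had 68.5, 72.3, 74.5 and 81.4 CPM in CF libraries 0 to 3, against 82.1, 67.3, 60.8 and 61.0 CPM in WT libraries 0 to 3. Clock was the steadiest of the 10 genes, its highest library being 1.35 times its lowest, and WT library 0 was above all CF libraries while the other WT libraries were below them. On the authors' FPKM scale CF library 1 was the highest, at 9.21 FPKM, with WT library 0 at 9.14 FPKM. Its log2 fold change of 0.13 (SE 0.117) had the smallest adjusted p of the 10, 0.635 by edgeR, and a 95% interval of -0.13 to 0.39.

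Npas2 (chromosome 9, 45901309 to 46081882), which can stand in for Clock, varied far more than Clock. It had 46.8, 134.8, 68.6 and 44.8 CPM in CF libraries 0 to 3, against 120.8, 71.4, 87.2 and 75.2 CPM in WT libraries 0 to 3. CF library 1 was above every WT library and the other CF libraries were below every WT library, so CF bracketed WT again. In the authors' FPKM, CF library 2 was at 17.8 FPKM and lay among the WT libraries, which ran from 15.3 to 26.7 FPKM. Its mean was 73.8 ± 42.1 CPM in CF intestine and 88.6 ± 22.5 CPM in WT (SD, n = 4 each), with a log2 fold change of -0.27 (SE 0.359, edgeR adjusted p = 0.769). Without CF library 1 the log2 fold change was -0.73, still short of the threshold at an adjusted p of 0.194, which was the smallest of any of the 10 genes over all alternatives run. Leaving out CF library 0, CF library 3 or WT library 0 gave -0.10, -0.09 and -0.08 in that order, so single libraries set its size.

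**Figure D1:**
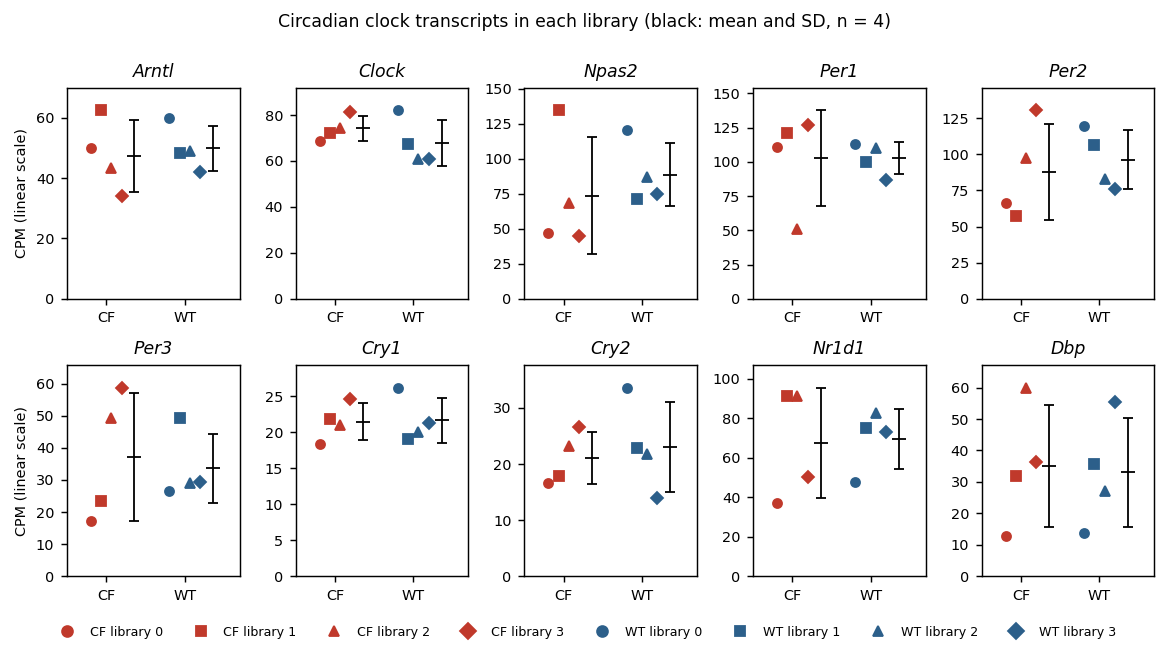
CPM of the 10 clock genes in each library, CF left of WT in each panel, with a coloured symbol for each library and the group mean ± SD (n = 4) in black; each panel has its own vertical axis from 0. In every panel the CF and WT ranges overlap, and for Npas2 CF library 1 lies above and the other CF libraries below every WT library.

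The Per genes encode the repressors that limit each cycle, and Per1 is in addition an early target of glucocorticoid and cAMP signals. Per1 (chromosome 10, 55681820 to 55696705) had 111.1, 121.4, 51.0 and 127.2 CPM in CF libraries 0 to 3, against 113.0, 100.2, 109.8 and 87.0 CPM in WT libraries 0 to 3. CF library 2 was the lowest of the 8, while the other CF libraries lay within or above the WT values. CF library 2 was also the lowest in the authors' FPKM, at 9.05 FPKM, but there CF library 0 was the highest, at 24.2 FPKM, and CF library 3 was at 15.7 FPKM. The group means were nearly equal, 102.7 ± 35.1 CPM in CF intestine and 102.5 ± 11.7 CPM in WT (SD, n = 4 each), and the edgeR adjusted p was 0.998. Per2 (chromosome 9, 98552762 to 98598452), the repressor most directly tied to the length of the cycle, had 66.2, 57.6, 97.7 and 130.6 CPM in CF libraries 0 to 3, against 119.9, 106.7, 82.8 and 76.2 CPM in WT libraries 0 to 3. CF held both its lowest values, in libraries 0 and 1, and its highest, in library 3, in CPM. In the authors' FPKM the highest was WT library 0, at 16.9 FPKM, and CF library 3 was at 13.1 FPKM, so that order depends on the scaling. Its log2 fold change was -0.13 (95% interval -0.71 to 0.45, edgeR adjusted p = 0.847).

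Per3 (chromosome 5, 168085995 to 168123402), an accessory Per gene with a strong daily rhythm in many tissues, had 17.2, 23.5, 49.3 and 58.8 CPM in CF libraries 0 to 3, against 26.6, 49.4, 29.1 and 29.3 CPM in WT libraries 0 to 3. In CF a pair of libraries was low and a pair high, while in WT library 1 alone was high. The highest CF library was 3.41 times the lowest, against 1.86 times in WT. Its log2 fold change of 0.14 had an interval of -0.77 to 1.06 and an edgeR adjusted p of 0.898.

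Cry1 and Cry2 encode the cryptochromes, which carry most of the repression of the Arntl and Clock pair. Cry1 (chromosome 7, 24534615 to 24634097) had 18.4, 21.8, 21.0 and 24.6 CPM in CF libraries 0 to 3, against 26.2, 19.1, 20.0 and 21.3 CPM in WT libraries 0 to 3. The groups covered nearly the same range, and the log2 fold change was -0.01 (95% interval -0.31 to 0.29, edgeR adjusted p = 0.980). Cry2 (chromosome 3, 81314040 to 81344110) had 16.6, 17.8, 23.1 and 26.6 CPM in CF libraries 0 to 3, against 33.6, 22.8, 21.8 and 14.0 CPM in WT libraries 0 to 3. For Cry2 it was WT that held both the highest library and the lowest, and the log2 fold change was -0.13 (SE 0.248, edgeR adjusted p = 0.841).

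Nr1d1, the nuclear receptor that represses Arntl, had 37.2, 91.1, 91.4 and 50.2 CPM in CF libraries 0 to 3, against 47.7, 75.0, 82.6 and 72.8 CPM in WT libraries 0 to 3. CF libraries 1 and 2 were above every WT library, and CF library 0 was below every WT library. The mean was 67.5 ± 27.9 CPM in CF intestine and 69.5 ± 15.1 CPM in WT (SD, n = 4 each), with a log2 fold change of -0.04 (SE 0.300) and an edgeR adjusted p of 0.962. The merged span that holds Nr1d1 in the tables (chromosome 10, 86657183 to 86691101, Rnor_6.0) is the same as that of Thra, the thyroid hormone receptor gene on the opposite strand, and whether counting used strand is not stated. Thra averaged 65.0 ± 20.0 CPM in CF intestine and 112 ± 22.1 CPM in WT (SD, n = 4 each), with an edgeR adjusted p of 0.169, and how reads were divided between Thra and Nr1d1 was not tested.

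Dbp, an output transcription factor that the Arntl and Clock pair drives directly and that reads out the phase of the loop, was the most variable of the 10. It had 12.8, 31.8, 60.0 and 36.3 CPM in CF libraries 0 to 3, against 13.9, 35.6, 27.1 and 55.5 CPM in WT libraries 0 to 3. Library 0 was the lowest of each group, and the highest was CF library 2 and WT library 3. Means were 35.2 ± 19.4 CPM in CF intestine and 33.0 ± 17.5 CPM in WT (SD, n = 4 each), and the log2 fold change was 0.09 (SE 0.524, edgeR adjusted p = 0.951). Its 95% interval of -1.12 to 1.31 includes differences of over 2-fold in both directions. The Dbp span (chromosome 1, 101687855 to 101700926) is shared with Sphk2, a sphingosine kinase gene, which averaged 144 ± 26.6 CPM in CF intestine and 124 ± 8.12 CPM in WT (SD, n = 4 each; edgeR adjusted p = 0.472).

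The precision of these comparisons differed widely between the genes. All 10 intervals of the log2 fold change include 0, and 3 of them, those of Npas2, Per3 and Dbp, reach a 2-fold difference, so a difference of that size in these 3 genes lies within the error of 4 libraries a group. CF library 0 had the lowest value of the 8 for Per3, Cry1, Nr1d1 and Dbp in CPM, and for all but Cry1 in FPKM, beside its enterocyte score of -1.17, while WT library 0, with a Dbp level of 13.9 CPM, had an enterocyte score of 0.27. Without CF library 0 the log2 fold changes were 0.39 for Per3, 0.06 for Cry1, 0.16 for Nr1d1 and 0.37 for Dbp, with edgeR adjusted p-values of 0.643 to 0.876 for these 4 genes, and the sign of Cry1 and of Nr1d1 was then positive.

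**Figure D2:**
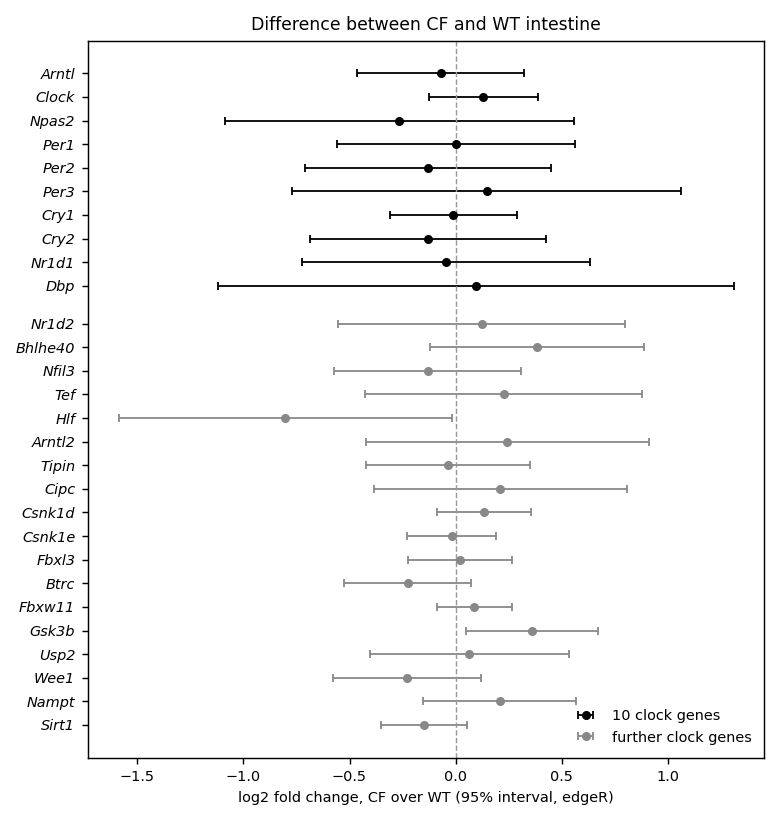
Log2 fold change (CF over WT) with its 95% interval for the 10 clock genes (black) and the 18 further clock genes tested (grey), from edgeR's fit of all 16941 tested loci. Every black interval crosses 0, Clock having the narrowest and Dbp the widest, from -1.12 to 1.31.

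The level per transcript length, in the authors' FPKM over all 8 libraries (mean ± SD), ordered the genes as follows. Npas2 (18.4 ± 7.04) and Per1 (17.3 ± 4.82) were highest. Dbp (14.8 ± 8.08), Nr1d1 (14.7 ± 7.15), Arntl (12.5 ± 3.18) and Per2 (12.1 ± 2.84) followed, and none of these 6 differed from its neighbour in the order by more than either SD. Cry1 (8.02 ± 1.23) and Clock (7.78 ± 1.14) formed a lower step, and Per3 (4.71 ± 1.60) and Cry2 (4.60 ± 1.64) the lowest. Only the steps between Per2 and Cry1 and between Clock and Per3 exceeded the SD of both neighbours. The authors' own group values gave Npas2 16.5 FPKM in CF and 20.3 FPKM in WT, and Per1 16.8 FPKM in CF and 17.9 FPKM in WT.

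A difference in the hour of sampling between the groups can move genes of opposite phase in opposite directions. Log2 ratios of such genes within a library were therefore examined. They do not depend on how libraries are scaled, and are given as a description. Hours on either side of a peak can give the same ratio, so like ratios do not show like hours. The log2 ratio of Dbp to Arntl was -1.96, -0.98, 0.46 and 0.09 in CF libraries 0 to 3, against -2.11, -0.44, -0.86 and 0.40 in WT libraries 0 to 3. Both groups thus spanned nearly the same range, 2.42 log2 units in CF and 2.52 in WT. The mean was -0.60 ± 1.10 in CF and -0.75 ± 1.05 in WT (SD, n = 4 each), a CF minus WT difference of 0.16, far below the spread in either group. With the authors' FPKM that difference was 0.08.

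The other ratios overlapped as well. Nr1d1 to Arntl was -0.42, 0.54, 1.07 and 0.56 in CF libraries 0 to 3, against -0.33, 0.64, 0.75 and 0.79 in WT libraries 0 to 3, with a difference of the means of -0.02, and of 0.14 with the authors' FPKM, so its sign depends on the unit. Library 0 of each group was again the lowest of its group. The ratio of Per3 to Npas2 was -1.44, -2.52, -0.48 and 0.39 in CF libraries 0 to 3, against -2.18, -0.53, -1.58 and -1.36 in WT libraries 0 to 3. CF libraries reached both the highest value and the lowest, and the difference of the means was 0.40, against an SD of 1.25 in CF and 0.684 in WT. Per2 to Npas2 was 0.50, -1.23, 0.51 and 1.54 in CF libraries 0 to 3, against -0.01, 0.58, -0.07 and 0.02 in WT libraries 0 to 3. Its values spanned 2.77 log2 units in CF and 0.655 in WT, around means of 0.33 in CF and 0.13 in WT. With all 8 libraries, CF and WT overlapped in each of the 4 ratios, and the difference between group means was smaller than the SD of either group. Single libraries moved these differences by as much as their size. Without 1 library the difference ran from -0.30 (without WT library 0) to 0.61 (without CF library 0) for Dbp to Arntl, and from -0.29 to 0.26 for Nr1d1 to Arntl, without the same libraries. For Per3 to Npas2 it ran from -0.07 without CF library 3 to 0.90 without CF library 1, and for Per2 to Npas2 from -0.20 to 0.72, without the same libraries. Both values without CF library 1 exceed the WT SDs of 0.684 and 0.304, while the remaining libraries of the groups still overlapped. The sign of all 4 differences thus depended on 1 library, and a shift between the groups of the size of these ranges cannot be told apart from the spread. Whether the libraries within a group were collected at different hours was not tested, since no hour is given.

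**Figure D3:**
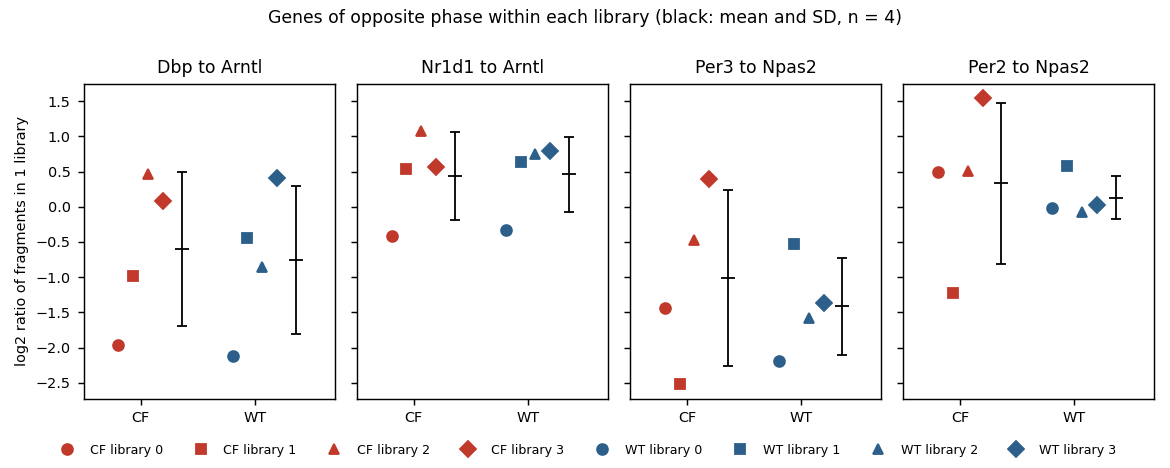
Log2 ratios of clock genes of opposite phase within each library, CF left of WT for each ratio, with a coloured symbol for each library and the group mean ± SD (n = 4) in black. Dbp to Arntl spans about the same range in both groups, while Per2 to Npas2 spans 2.77 log2 units in CF and 0.655 in WT.

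While no difference between the groups was detected, most of the 10 clock genes varied strongly between libraries of the same group. The pooled SD of log2 CPM within groups was 0.880 for Dbp, a value above that of 96.6% of the tested loci. It was 0.662 for Per3, 0.573 for Npas2, 0.519 for Nr1d1, 0.455 for Per1, 0.437 for Per2 and 0.427 for Cry2. Arntl stood at 0.299, and Cry1 and Clock were steady at 0.187 and 0.162. For several genes this spread lay mostly in CF: the SD was 0.62 in CF and 0.17 in WT for Per1, 0.844 in CF and 0.406 in WT for Per3, 0.735 in CF and 0.342 in WT for Npas2, and 0.645 in CF and 0.35 in WT for Nr1d1. Dbp varied in both groups, with an SD of 0.923 in CF and 0.834 in WT, and Cry2 more in WT, with 0.316 in CF and 0.515 in WT. Whether the spread differed between the groups was not tested. The median was 0.446 over the 10 genes and 0.254 over all tested loci. Spread falls with abundance, and among the 7216 loci at least as abundant as the least abundant clock gene the median was 0.181, which 9 of the 10 clock genes exceeded. In those 7216 loci Dbp was above 99.1%, Per3 above 97.9%, Npas2 above 96.8% and Clock above 42.0% of the loci.

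**Figure D4:**
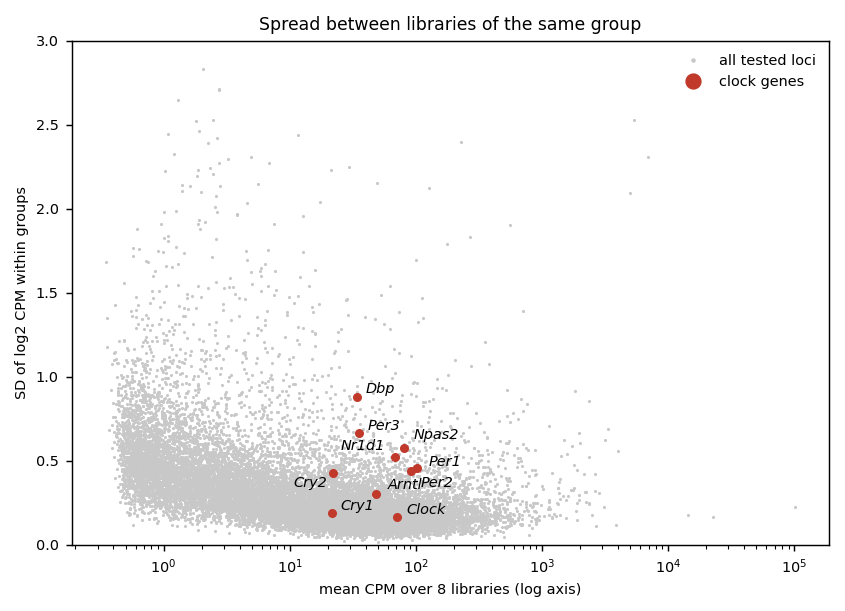
SD of log2 CPM within groups against the mean CPM over the 8 libraries (log axis) for all tested loci (grey) and the 10 clock genes (red). Dbp, Per3 and Npas2 lie above most loci of like abundance while Clock and Cry1 lie among them; 8 loci with an SD above the axis are not drawn.

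Which genes varied together was described over the 8 libraries with 45 pairs of the 10 genes, each tested by an exact permutation of the 40320 pairings (two-sided) and adjusted over the 45 pairs. No pair passed after adjustment, the smallest adjusted p of this permutation test being 0.322, and 6 pairs had an unadjusted p under 0.05. Of these 6, Clock had r = 0.73 with Cry2 and 0.72 with Cry1, and Per2 had r = 0.74 with Per3. Without WT libraries 0 and 2 the r of Clock was 0.82 with Cry2 and 0.59 with Cry1. Without CF libraries 1 and 3 the r of Per2 and Per3 was 0.60. The rest of the 6 are given below. Arntl and Npas2, both repressed by Nr1d1, had a Pearson r of 0.80 (exact permutation p = 0.0146) and a Spearman rho of 0.69 (exact permutation p = 0.0694). That r fell to 0.51 without CF libraries 1 and 3, the highest and the lowest in Arntl, so it rests in part on them. Per2 and Cry2 had r = 0.81 (exact permutation p = 0.0151) and rho = 0.86 (exact permutation p = 0.0107), and r was 0.87 without the 2 libraries farthest from the median of Per2.

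Some pairs of opposite phase gave negative values. Arntl and Per3 had r = -0.66 (exact permutation p = 0.0747) and rho = -0.83 (exact permutation p = 0.0154), and r was -0.37 without CF libraries 1 and 3. Arntl and Dbp had r = -0.53 (exact permutation p = 0.181) and rho = -0.74 (exact permutation p = 0.0458), and without the same libraries r was -0.85. Nr1d1 and Dbp, both driven by Arntl and Clock, had r = 0.74 (exact permutation p = 0.0428), which fell to 0.08 without library 0 of each group and therefore rests on those libraries. Of the other pairs of opposite phase, Arntl and Per2 had r = -0.455, Npas2 and Per3 -0.311, and Npas2 and Per2 -0.249. The rest with Arntl or Npas2 were near 0 or positive. Npas2 had r = -0.07 with Dbp, and Nr1d1 had r = 0.10 with Arntl and 0.48 with Npas2. Some of these pairs differed by group. Nr1d1 and Arntl had r = 0.345 in CF and -0.778 in WT. Nr1d1 and Npas2 had 0.798 in CF and -0.84 in WT, and Npas2 and Dbp 0.291 in CF and -0.915 in WT. Arntl and Per2 went the other way, with -0.97 in CF and 0.849 in WT. Each such value rests on 4 libraries and was not tested. Pairs of like phase also went both ways. Per1 had r = -0.59 with Dbp, -0.46 with Nr1d1 and -0.33 with Per3, while Per3 had r = 0.65 with Dbp. The r of Per1 and Dbp was 0.14 without CF library 2 and WT library 3.

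**Figure D5:**
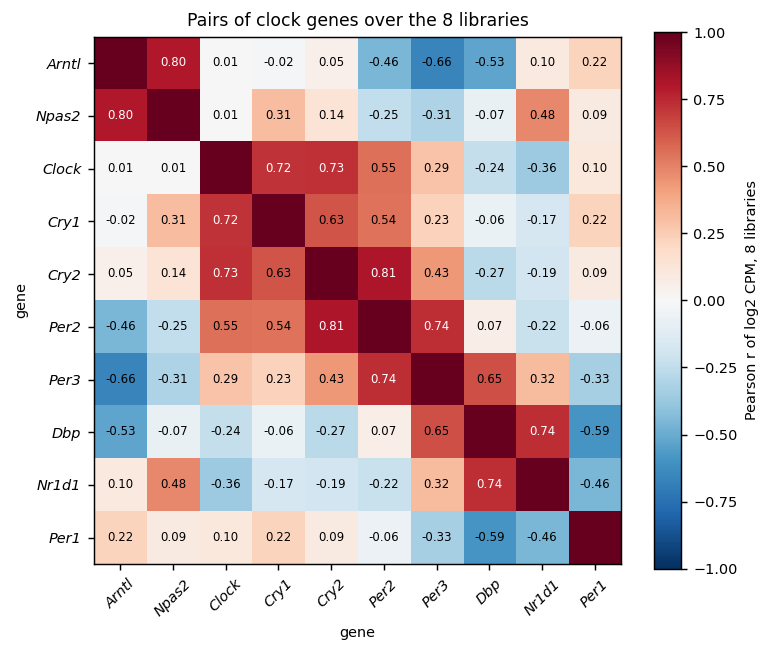
Pearson r of log2 CPM over the 8 libraries for each pair of the 10 clock genes, as a colour and a printed value in each cell, on a scale from -1 to 1. Arntl with Npas2 (0.80) and Per2 with Cry2 (0.81) are the highest cells, and Arntl with Per3 (-0.66) is the lowest.

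The loci whose values over the 8 libraries were most like Arntl among 12116 compared were Mir192 (r = 0.93), Glis1 (0.92), Nynrin (0.91), Lix1 (0.90) and Cog1 (0.90), while Npas2 ranked 42 by Pearson r. At the opposite end lay Tef, a relative of Dbp, at rank 12049 (r = -0.71), Nr1d2, the paralog of Nr1d1, at rank 12027 (r = -0.69) and Per3 at rank 11990. Dbp ranked 11598 and Per2 ranked 11188. Other clock genes were not at either end, with Per1 at rank 3649 (r = 0.22), Nr1d1 at 5058 (r = 0.10) and Clock at 6065 (r = 0.007). The loci most like Dbp were Zbtb7c (r = 0.98), Rab27a (0.97), Ptpn5 (0.96), Rep15 (0.95) and Slc2a7 (0.93). Nr1d2 ranked 14 (r = 0.90), Nr1d1 ranked 228, Tef ranked 479 and Per3 ranked 536 for likeness to Dbp. Per2 ranked 4670 (r = 0.07) and Per1 ranked 11177 (r = -0.59), so not all Per genes varied with Dbp. With Spearman rho in place of Pearson r, 2 of the 5 for Arntl and 3 of the 5 for Dbp were the same loci. Among 12116 loci and 8 libraries high r values can arise by chance, and whether these exceed chance was not tested. Some of the top loci were low in every library: Glis1 (0.5984 to 1.749 CPM), Lix1 (1.446 to 2.877 CPM), Zbtb7c (1.157 to 3.003 CPM) and Ptpn5 (1.205 to 2.448 CPM). The other top loci were higher, their lowest value being 6.461 CPM, for Rep15 in CF library 0.

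None of the further clock genes passed the test either. Of 25 such genes 21 had a locus under that symbol and 18 were tested, while Rora, Rorb and Bhlhe41 had 68, 12 and 25 fragments in all and were below the filter. edgeR called 0 of the 18, with adjusted p-values of 0.271 to 0.956. Of their log2 fold changes 11 were positive and 7 negative, with a median of 0.08, and 2 had an unadjusted edgeR p under 0.05, as did 15.1% of all tested loci. DESeq2 and limma-voom also called 0 of them.

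Those 2 were Gsk3b and Hlf, named after their values were seen. Gsk3b, a kinase that phosphorylates clock proteins, averaged 32.1 ± 3.46 CPM in CF intestine and 25.0 ± 4.47 CPM in WT (SD, n = 4 each; log2 fold change 0.36, edgeR adjusted p = 0.271). Hlf, a relative of Dbp, was near the detection floor with 91 fragments in all, at 0.439 ± 0.150 CPM in CF intestine and 0.763 ± 0.186 CPM in WT (SD, n = 4 each; edgeR adjusted p = 0.321). In Fbxw11, a subunit of the ubiquitin ligase that targets Per proteins, the CF libraries lay above the WT libraries with no overlap, at 56.6 ± 0.994 CPM in CF intestine and 53.3 ± 1.62 CPM in WT (SD, n = 4 each), yet the log2 fold change was only 0.09 (edgeR adjusted p = 0.647).

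The most abundant of the further genes was Csnk1d, the casein kinase that sets the stability of the Per proteins, at 252.5 ± 16.1 CPM in CF intestine and 230.3 ± 13.3 CPM in WT (SD, n = 4 each; edgeR adjusted p = 0.563). Cipc, an inhibitor of the Clock protein, had 145.7 ± 55.7 CPM in CF intestine and 126 ± 14.5 CPM in WT, and CF library 2 was its lowest, at 71.5 CPM, as it was for Per1. Bhlhe40, a repressor that competes for E-boxes, had 103 ± 34.3 CPM in CF intestine and 79.2 ± 17.2 CPM in WT, with a log2 fold change of 0.38 (SE 0.225, edgeR adjusted p = 0.460). Its highest library was CF library 0, at 153.1 CPM, and without that library the log2 fold change was 0.13. Nr1d2 had 34.7, 47.2, 65.7 and 65.8 CPM in CF libraries 0 to 3, against 26.2, 65.5, 44.5 and 59.9 CPM in WT libraries 0 to 3. Library 0 was the lowest of its group in both, as it was for Dbp. Nampt, the enzyme of the NAD salvage route that the clock drives, had 47.5 ± 12.8 CPM in CF intestine and 41.2 ± 1.83 CPM in WT (SD, n = 4 each; edgeR adjusted p = 0.578).

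Lists of genes that respond to handling and to stress hormones were set beside Per1. All 10 tested immediate early genes had positive log2 fold changes with a median of 0.84. Of them 1, Junb, passed the edgeR test, which 0.165% of all tested loci passed. Their mean deviation from the 8-library mean was 0.44, 0.67, 0.37 and 0.36 log2 units in CF libraries 0 to 3. In WT libraries 0 to 3 it was 0.01, -0.57, -0.61 and -0.67, so the groups did not overlap in this score. Among single tested loci 8.78% showed no overlap. The groups overlapped in Per1, and whether handling acted on Per1 was not tested. The most abundant of the list, Btg2, averaged 126 ± 22.5 CPM in CF intestine and 98.4 ± 12.9 CPM in WT (SD, n = 4 each).

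Of 6 glucocorticoid-induced genes 0 were called and 4 had positive log2 fold changes, with a median of 0.13. Their mean deviation was 0.54, 0.18, -1.36 and 0.84 log2 units in CF libraries 0 to 3, against -0.68, 0.35, 0.47 and -0.35 in WT libraries 0 to 3. CF library 2, the lowest in Per1, was also the lowest in this score, and CF library 3, the highest in Per1 in CPM but not in FPKM, was the highest in it. The WT libraries did not follow this order. WT library 0 was the highest of WT in Per1, at 113.0 CPM, and the lowest of WT in the score. The most abundant of the list was Sgk1, at 377 ± 171 CPM in CF intestine and 361 ± 74.5 CPM in WT (SD, n = 4 each). Over the 8 libraries Per1 had its highest r with Tsc22d3 (r = 0.87, exact permutation p = 0.0283), a comparison of 6 genes added after the data had been seen. None of these 6 held after adjustment, the smallest adjusted p of the permutation test being 0.0564, and without CF libraries 2 and 3 that r was -0.05.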

How the data were processed

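RNA was extracted from whole small intestine and sequenced as stranded mRNA libraries on a HiSeq2500, per the labels' protocols. The submitters' processing notes name bcl2fastq, cutadapt, STAR 2.3.1z, StringTie, Cuffdiff and build Rnor_6.0. The sources used here give neither their order nor their settings. The deposited Cuffdiff table holds estimated counts of fragments per locus and library, of which 5.99% were fractional (20.0% for the 10 clock genes), and they were rounded. The FPKM values were deposited by the authors after Cuffdiff's scaling. 2 other per-library columns were not used.

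edgeR 4.0.16 in R 4.3.3 fitted all 8 libraries (TMM scaling, filterByExpr, robust quasi-likelihood, Benjamini-Hochberg over 16941 loci, threshold 0.05), with no covariate since the labels give none. limma 3.58.1 and DESeq2 1.42.0 served as alternatives, and the fit was tested on simulated data. Values per library are CPM with TMM scaling. Spans are written 1-based on Rnor_6.0 and promoters on GRCr8. Intervals cover the spread between libraries.

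The genes and gene lists were chosen with earlier results of these data known. The text names the 10 clock genes, the 6 most abundant further clock genes, the 5 loci most like Arntl and Dbp, the most abundant gene of each handling list, and Cftr. Other names were chosen after values were seen. The tables number libraries 0 to 3 and the titles 1 to 4, and nothing ties one to the other within a group.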

Additional observations from a re-analysis of the deposited data

Results flagged for a closer look

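In 44 groups of 4 values, 3 had 1 library farther from the rest than Dixon's 95% critical value allows, and chance gives about 5% of such groups. Per3 was at 49.4 CPM in WT library 1, where the gap to the next WT library was 0.882 of the WT range. The log2 ratio of Nr1d1 to Arntl was -0.33 in WT library 0, with a gap of 0.859 of the WT range. The log2 ratio of Per2 to Npas2 was 0.58 in WT library 1, with a gap of 0.853 of the WT range.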

How the results depend on the processing

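The count of clock genes called was 0 in all 15 alternatives, as was that of the further clock genes, and the median log2 fold change of the clock genes moved by less than the spread between libraries in each. The count over all loci, 28, was 17 with scaling by total fragments only, 553 with no low-count filter and 563 with DESeq2, and 5 to 136 with 1 library left out, the highest without CF library 0 and the lowest without WT library 1 or WT library 2, with 77 without CF library 2 and 6 without WT library 3; the cause was not tested. Of 150 alternative fits of the 10 clock genes 31 changed the sign, none with an adjusted p under 0.05, and the largest log2 fold change after a change of sign was 0.291 in size. Clock and Npas2 kept their sign in all 15, and with 1 library left out Clock ran from 0.08 to 0.24 and Npas2 from -0.73 to -0.08. Per1 was -0.093 with total fragments, -0.077 with limma-voom, -0.14 with limma on log2(FPKM + 1) and -0.15 on log2(FPKM + 0.1). On the same FPKM scales Per3 was -0.007 and -0.023, Nr1d1 0.022 and 0.015, and Dbp -0.041 and -0.049. Cry1 was 0.027 with no filter and 0.003 with DESeq2. With 1 library left out the log2 fold change ran from -0.231 to 0.062 for Arntl, -0.115 to 0.228 for Per1, -0.382 to 0.029 for Per2, -0.16 to 0.39 for Per3, -0.081 to 0.093 for Cry1, -0.30 to 0.10 for Cry2, -0.22 to 0.16 for Nr1d1, -0.29 to 0.46 for Dbp and -0.085 to 0.295 for Nr1d2. These sign changes are of values near 0, and the cause was not tested. Of the alternatives, 4 were chosen after seeing the data: FPKM for 3 of the phase ratios, the phase ratios with 1 library left out, the Per1 comparison with 6 glucocorticoid genes, and the E-prime box. No paired analysis was possible because the tables number the libraries 0 to 3 and do not carry the replicate numbers of the labels.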

Other observations

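A pair of glucocorticoid-induced genes ranged more widely between libraries than any of the 10 clock genes did. Fkbp5, a cochaperone of the glucocorticoid receptor chosen after its values were seen, had 378.2, 158.7, 17.1 and 394.1 CPM in CF libraries 0 to 3, against 24.9, 178.5, 195.2 and 71.9 CPM in WT libraries 0 to 3, a 23.1-fold range. Zbtb16, a transcription factor that glucocorticoids induce and also chosen so, had 91.0, 29.4, 3.67 and 103.9 CPM in CF libraries 0 to 3, against 6.82, 60.6, 93.6 and 5.53 CPM in WT libraries 0 to 3, a 28.3-fold range. The groups overlapped in both genes, with edgeR adjusted p-values of 0.663 for Fkbp5 and 0.890 for Zbtb16. The widest range among the 10 clock genes was that of Dbp, at 4.67-fold.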
